A study of Rattus norvegicus with 24 samples.

Results

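MiRNAs that are best known from red blood cells and from the liver were read in small RNA libraries of 2 brain nuclei: rno-miR-451-5p, rno-miR-144-3p, rno-miR-144-5p and rno-miR-486 for red cells, and rno-miR-122-5p, rno-miR-122b, rno-miR-192-5p and rno-miR-194-5p for the liver. The prefix rno, which marks the rat, is mostly left out in what follows. They were chosen by name, and all 8 of them were present among the 1098 miRNAs of the count table and among the 898 with at least 10 counts over all 24 libraries, which were tested. The libraries came from the PVN of the hypothalamus, which the study names the periventricular nucleus, and from the CEA, the central nucleus of the amygdala, of male Sprague-Dawley rats, which were 7 weeks old when purchased and were then given a week to adapt. Each nucleus had 4 groups of 3 libraries, and 12 rats were used in all. NC rats were normal controls. HT rats had a partial hepatectomy of about 20% of the left liver lobe under isoflurane. HT + EA rats had the same operation with electroacupuncture at ST36 and SP6 at 2/15 Hz for 30 min, given the day before and right after surgery, and HT + SEA rats had the needles without current. Rats without needles were restrained in the same way. The nuclei were dissected 24 h after the last needling. The comparisons ask what the operation did to these miRNAs in each nucleus and whether electroacupuncture or its sham moved them.

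MiRNAs are short RNAs that guide Argonaute proteins to messenger RNAs, mostly through the seed near their 5′ end. miR-144 and miR-451 are made from one transcript that is driven by GATA1 in erythroid cells, and miR-451 is the main miRNA of mature red cells. Its hairpin is too short for Dicer and is cut by Argonaute 2 instead. miR-486 lies in the ankyrin 1 gene and is abundant in red cells and in muscle. miR-122 is the dominant miRNA of hepatocytes, and the table lists miR-122b as a row of its own. miR-192 and miR-194 are made together and are abundant in liver, gut and kidney, but are not restricted to them. Brain tissue that is not perfused carries blood, and in bulk tissue fewer cells of a type and less RNA per cell cannot be told apart.

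The mature sequences are shown because no 2 printed seeds are alike, so that each of these levels belongs to a separate targeting sequence. They were read 5′ to 3′ from RefSeq on its GRCr8 build, in which 6 of the 8 members matched and from which 5 are printed, without miR-122-5p. The capitals mark the seed, bases 2 to 8.
miR-451-5p: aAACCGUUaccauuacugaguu
miR-144-3p: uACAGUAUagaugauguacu
miR-144-5p: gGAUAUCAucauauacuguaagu
miR-192-5p: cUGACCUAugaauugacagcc
miR-194-5p: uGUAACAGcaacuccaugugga
Mir144 lies at chr10:63459397-63459479 and Mir451a at chr10:63459569-63459640, 89 bases apart on the plus strand. Mir194-2 and Mir192 lie 100 bases apart on the plus strand of chromosome 1, and miR-194-5p has a second locus, Mir194-1, on chromosome 13. The seed of miR-192-5p is shared with miR-215. The hairpins of the red-cell pair are shown because both arms of Mir144 were counted separately. Here the capitals mark the mature strands.
Mir144: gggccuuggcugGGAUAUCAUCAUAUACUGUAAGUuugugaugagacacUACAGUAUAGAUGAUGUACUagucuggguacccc
Mir451a: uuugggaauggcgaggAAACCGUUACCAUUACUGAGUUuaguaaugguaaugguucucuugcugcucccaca
The miR-451-5p strand runs on into the loop of its hairpin. The opposite arm, miR-451-3p, had 14 counts in all libraries together against 38977 of miR-451-5p.

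Library totals ran from 6584345 to 14913564 miRNA counts. Levels are given as counts per 1000000 miRNA counts of the library (CPM), and fitted differences as log2 fold changes after TMM scaling from edgeR's quasi-likelihood test. A miRNA was called when its unadjusted p was under 0.05. The Benjamini-Hochberg adjusted p over all tested miRNAs is given beside each call. Neuronal and glial miRNAs, such as miR-124-3p, miR-9a-5p and miR-128-3p, made up 165872 to 262983 CPM over the 6 of the brain list. Libraries of the same group differed from each other by more than counting error. CEA HT replicate 1 stood apart: miR-148a-3p made up 16.1% of its counts, against 6.33% to 10.2% elsewhere, and it held the lowest miR-451-5p, miR-486 and miR-194-5p levels of all libraries.

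All 4 red-cell miRNAs were detected in every library. The most abundant, rno-miR-451-5p, had 599 to 2584 counts and ranked 200th of the miRNAs by mean CPM. Next was rno-miR-486 with 444 to 1672 counts, while rno-miR-144-3p had 35 to 212 and rno-miR-144-5p 42 to 215. In the PVN, miR-451-5p stood at 164, 216 and 198 CPM in NC, 134, 131 and 143 in HT, 138, 194 and 116 in HT + EA, and 140.0, 146 and 150.3 in HT + SEA. In the CEA it stood at 85.7, 148 and 159 in NC, 49.3, 126 and 103 in HT, 108, 123 and 83.8 in HT + EA, and 151, 105 and 204 in HT + SEA. The PVN HT libraries were thus tightly grouped below all PVN NC libraries, whereas every pair of CEA groups overlapped. By group mean the order ran from PVN NC (193 ± 26.7 CPM, SD, n = 3) through CEA HT + SEA, PVN HT + EA, PVN HT + SEA, PVN HT, CEA NC and CEA HT + EA to CEA HT (92.6 ± 39.2). Of the 7 neighbouring pairs in that order, 6 lay within the larger SD of the pair. The exception was PVN HT + SEA above PVN HT.

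Every group mean of miR-486 was higher in the PVN than in the CEA. In the PVN it stood at 87.2, 93.9 and 113 CPM in NC, 74.2, 83.5 and 77.5 in HT, 102, 109 and 95.8 in HT + EA, and 89.8, 83.8 and 124 in HT + SEA. In the CEA it stood at 54.4, 60.9 and 57.2 in NC, 36.6, 66.2 and 57.5 in HT, 57.7, 57.1 and 61.3 in HT + EA, and 59.3, 48.7 and 94.2 in HT + SEA. PVN HT was the lowest of the PVN groups, and the PVN HT and CEA HT + SEA libraries overlapped.

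The hairpin of miR-144 gives 2 mature strands, of which the 3p arm is the better known. In the PVN, miR-144-3p had 82, 141 and 111 counts in NC, 107, 152 and 147 in HT, 87, 79 and 115 in HT + EA, and 190, 177 and 147 in HT + SEA. As CPM these were 12.5, 13.2 and 15.1, then 12.2, 16.4 and 13.3, then 6.46, 6.51 and 7.76, and 14.5, 12.7 and 10.9. The 3 HT + EA libraries lay below the other 9 PVN libraries. In the CEA, the counts were 97, 207 and 197 in NC, 35, 73 and 207 in HT, 95, 79 and 37 in HT + EA, and 129, 79 and 212 in HT + SEA. The CEA HT libraries ran from 2.88 to 15.3 CPM and overlapped the 2.48 to 6.53 of HT + EA. The other arm, miR-144-5p, stood at 6.38 to 11.6 CPM in PVN NC, 8.42 to 10.2 in HT, 7.49 to 13.5 in HT + EA and 10.6 to 11.7 in HT + SEA, so that its HT + EA libraries covered the range of HT. In the CEA its lowest group mean was 7.86 ± 2.02 in HT and its highest 11.4 ± 2.21 in NC (SD, n = 3).

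**Figure D1:**
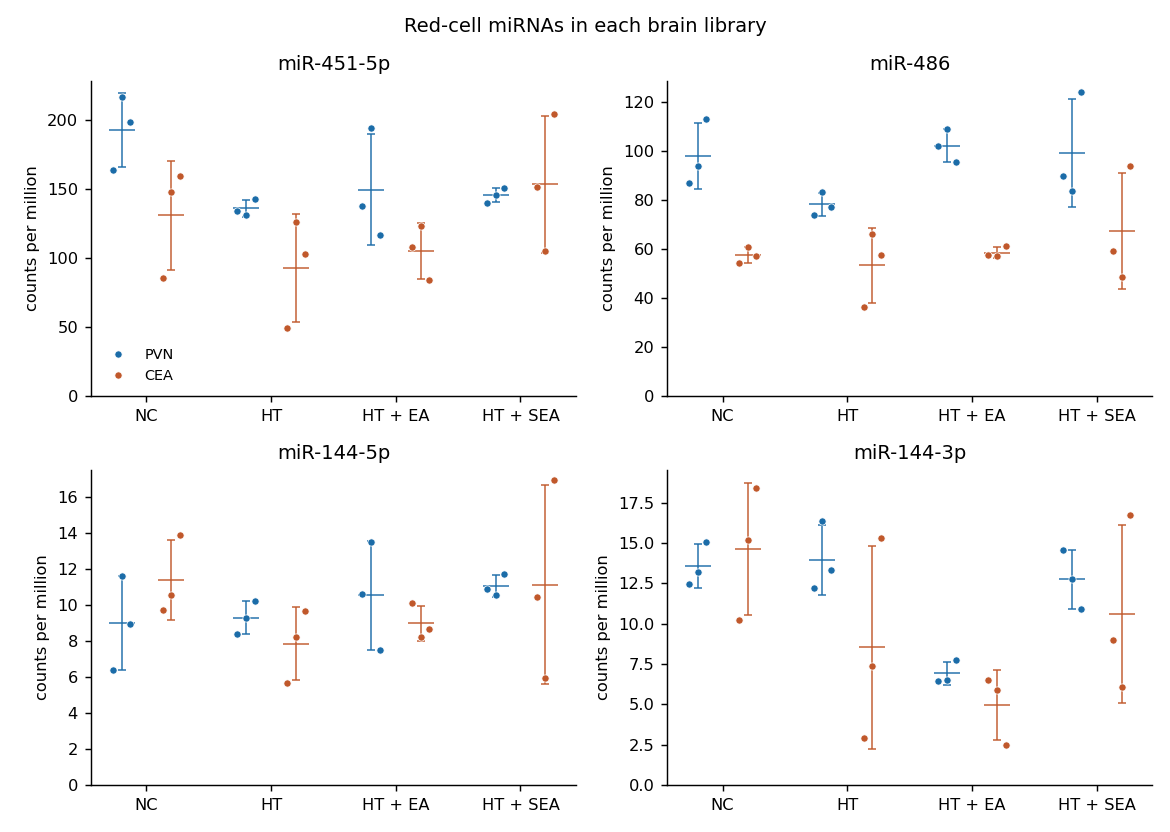
Level of the 4 red-cell miRNAs in CPM (vertical axes from 0), by treatment. Each point is 1 library, the dash is the mean of 3 and the bar its SD, blue for PVN and orange for CEA. The PVN HT libraries sit at 131 to 143 for miR-451-5p, below PVN NC, and the PVN HT + EA libraries at 6.46 to 7.76 for miR-144-3p, below all other PVN libraries.

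After hepatectomy, miR-451-5p and miR-486 were lower in the PVN, and neither arm of miR-144 was called. miR-451-5p fell by 0.57 on the log2 scale (SE 0.26, adjusted p = 0.455), and miR-486 by 0.39 (SE 0.19, adjusted p = 0.473). In both, HT and NC did not overlap, which was true of 2 of the 8 members and of 13.8% of all tested miRNAs. The ratio of miR-451-5p to miR-23a-3p within a library, which needs no scaling, did overlap, with 0.675, 0.984 and 1.13 in NC and 0.767, 0.617 and 0.479 in HT (log2 difference -0.58, two-sided exact permutation p = 0.2, adjusted p = 0.571 over 40 comparisons). Over both nuclei HT differed from NC by -0.47 (exact permutation p = 0.045, adjusted p = 0.18 over 20). Libraries of the nuclei may share animals, so the p over both nuclei can be too small. miR-144-3p and miR-144-5p differed by -0.03 each, with SEs of 0.42 and 0.28. Of all 8 members, 4 were called in this comparison, against a background of 10.4% of the 898 tested. The other 2 were the rows of miR-122, which are nearly the same counts under 2 names and were called only with PVN HT replicate 1, as described with the liver miRNAs. None of the 898 passed the adjusted threshold by edgeR, with 93 called unadjusted. DESeq2 adjusted calls numbered 6, with no member among them. The call of miR-451-5p held only when PVN NC replicate 1 was left out and was lost without any other of the 6 libraries (-0.67 to -0.46), and that of miR-486 held only without PVN NC replicate 1 or PVN HT replicate 2 (-0.45 to -0.26). Among the 9 other settings, the call of miR-451-5p held in 7 and that of miR-486 in 4, and both were lost with library totals and with the 1-count filter.

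Blood also carries white cells and platelets, and 6 of their miRNAs were measured beside this result. Their summed level was 229 to 327 CPM in PVN NC and 223 to 303 in PVN HT, and 1 of the 6 was lower, none higher. That one was miR-223-3p, the neutrophil and platelet miRNA, with 22.3, 89.0 and 81.2 CPM in PVN NC and 1.02, 1.40 and 1.54 in PVN HT (log2 -5.66, SE 1.22, adjusted p = 0.117). Another 7 miRNAs that are abundant in red cells but present in most tissues, among them miR-16-5p and miR-92a-3p, summed to 2003 to 2294 CPM in NC and 2184 to 2245 in HT, with none called. The striated-muscle list had 2 of 4 lower (miR-206-3p by 2.17 and miR-133a-3p by 0.65 on the log2 scale), the brain list 2 of 6 higher (miR-128-3p by 0.48 and miR-338-3p by 0.53), the choroid plexus and epithelial list 1 of 5 lower (miR-200b-3p by 1.71), and the endothelial and mural list 0 of 4 in edgeR. Summed, the red-cell members made up 270, 335 and 336 CPM of the NC libraries and 228, 240.5 and 244 of the HT libraries. The part of these other tissues and cells in the red-cell result was not tested.

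In the CEA, hepatectomy gave no member call by edgeR over all 24 libraries or by DESeq2, where 3.56% of all tested miRNAs were called. The fitted differences of miR-451-5p, miR-144-3p and miR-144-5p were -0.46 (SE 0.26), -0.74 (SE 0.42) and -0.47 (SE 0.27), and that of miR-486 was -0.05 (SE 0.19). Only miR-144-5p showed no overlap of the groups, or 1 of 8 members against 6.24% of all. Of the other lists, 1 of 6 white-cell miRNAs and 1 of 5 choroid plexus and epithelial miRNAs were lower. Their part was not tested. Libraries of the same replicate number deviated together in this pair of groups. With only these 6 libraries and the replicate number as a block, the first 3 were called, at -0.48, -0.92 and -0.48, with adjusted p of 0.497, 0.201 and 0.952. Over all alternatives the adjusted p of these 3 ran from 0.201 to 1. The block over all 24 libraries called 0 of 8. Without CEA HT replicate 1 the differences of miR-451-5p and miR-144-3p were -0.20 and -0.36. No member was called for a difference of the operation's effect between the nuclei (0 of 8 by edgeR and by DESeq2, against 5.46% of all by edgeR), the interval of the difference for miR-451-5p being -0.89 to 0.67 on the log2 scale.

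With electroacupuncture, the PVN held less miR-144-3p and more miR-486 than after hepatectomy alone. miR-144-3p fell by 0.998 on the log2 scale (SE 0.42, adjusted p = 0.534) and miR-486 rose by 0.40 (SE 0.19, adjusted p = 0.552), both without overlap between the groups, which was true of 2 of 8 members and of 17% of all miRNAs. miR-451-5p and miR-144-5p differed by 0.15 (SE 0.26) and 0.19 (SE 0.27). With miR-122-5p, 3 of 8 members were called, against 8.69% of all tested. The call of miR-144-3p held under all 9 other settings, with adjusted p from 0.0382 to 0.643, and was lost without HT + EA replicate 1 or 2 or HT replicate 2 (-0.94, -0.93 and -0.83). That of miR-486 held only without HT replicate 2 among the 6 libraries (0.36 to 0.47), and it held under 7 of the 9 other settings, with adjusted p from 0.201 to 0.643. Of the other lists in this comparison, the white-cell list had 1 of 6 higher (miR-223-3p by 2.98, SE 1.19, adjusted p = 0.514), the choroid plexus and epithelial list 1 of 5 higher (miR-200b-3p by 1.54), the brain list 2 of 6 lower (miR-128-3p at -0.41 and miR-219a-5p at -0.96), and the other liver-rich list 1 of 4 lower (miR-192-3p, with only 1, 1 and 5 counts in HT and 1, 0 and 0 in HT + EA). None was called among the 7 other red-cell-abundant, 4 endothelial and mural and 4 striated-muscle miRNAs. Their part was not tested.

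Against sham, miR-144-3p was 0.87 lower in PVN HT + EA (SE 0.42, adjusted p = 1), not called but with no overlap of the groups. This was also so for both rows of miR-122, or 3 of 8 members against 12.4% of all. By edgeR 0 of 8 members were called and by DESeq2 1, miR-144-3p, while 3.56% of all were called by edgeR. The replicate block over all libraries also called it (-0.90). In a fit of these 6 libraries alone its adjusted p was 0.00155, and over all alternatives this ran up to 1. miR-451-5p and miR-486 differed from sham by 0.05 and 0.06, with SEs of 0.26 and 0.19. Sham against hepatectomy alone gave no red-cell call in the PVN, with miR-486 at 0.34 (SE 0.19). miR-486 was called there under 2 of 9 other settings, those with only the groups compared, and without PVN HT replicate 2 (0.46) or PVN HT + SEA replicate 2 (0.47), with adjusted p from 0.387 to 1 over all alternatives. There, 3 of 8 members did not overlap between the groups (miR-144-5p, miR-486 and miR-192-5p), against 11.2% of all. Of the other lists in that comparison, 1 of 5 choroid plexus and epithelial miRNAs was higher and 1 of 4 striated-muscle miRNAs lower. Their part was not tested.

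In the CEA, HT + EA against HT gave 0 of 8 members by edgeR and 1 by DESeq2, with 6.46% of all called by edgeR. That member was miR-144-3p, at -0.86 (SE 0.43, adjusted p = 0.735) in edgeR. Without CEA HT replicate 1 this became -1.23 and without CEA HT replicate 3 it became -0.16. Of the other lists, 1 of 7 other red-cell-abundant miRNAs was higher (miR-185-5p by 0.31), as was 1 of 6 of the white-cell list (miR-223-3p by 3.04), while 1 of 6 brain miRNAs (miR-128-3p at -0.37) and 1 of 4 other liver-rich miRNAs (miR-148a-3p at -0.55) were lower, and their part was not tested. miR-148a-3p made up 16.1% of the counts of CEA HT replicate 1, and 8.63% and 7.64% in replicates 2 and 3. In CEA HT + EA it made up 8.82%, 8.62% and 7.58%. The HT + EA and HT groups did not overlap for 3 of 8 members (both rows of miR-122 and miR-192-5p, none of them called), against 10.4% of all. HT + SEA against HT called miR-451-5p alone, 0.69 higher (SE 0.26, adjusted p = 0.751), or 1 of 8 against 6.35% of all, while 0 of 8 members and 7.13% of all did not overlap. This call was lost without CEA HT replicate 1 (0.42) or CEA HT + SEA replicate 3 (0.41), the libraries with the lowest and the highest miR-451-5p of the nucleus. In the same comparison, 2 of 5 choroid plexus and epithelial miRNAs were higher (miR-200b-3p by 1.97 and miR-449a-5p by 0.89), as were 1 of 6 of the white-cell list (miR-223-3p by 2.92) and 1 of 7 of the other red-cell-abundant miRNAs (miR-185-5p by 0.31), and their part was not tested. HT + EA against HT + SEA called 2 of 8, against 2% of all: miR-451-5p at -0.58 (SE 0.26) and miR-144-3p at -1.13 (SE 0.43), both with an adjusted p of 1. Of the white-cell list 1 of 6 was also lower (miR-142-3p at -0.41, SE 0.19, adjusted p = 1), none of the other lists had a call, and their part was not tested. Again 0 of 8 members, and 5.35% of all, did not overlap. Both calls were lost without HT + EA replicate 3 or HT + SEA replicate 3, and that of miR-451-5p also without replicate 1 of either group. No member was called for a difference of the effect of electroacupuncture between the nuclei (0 of 8 by both tools, 2.34% of all by edgeR), with an interval of -1.41 to 1.13 for the difference in miR-144-3p.

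**Figure D2:**
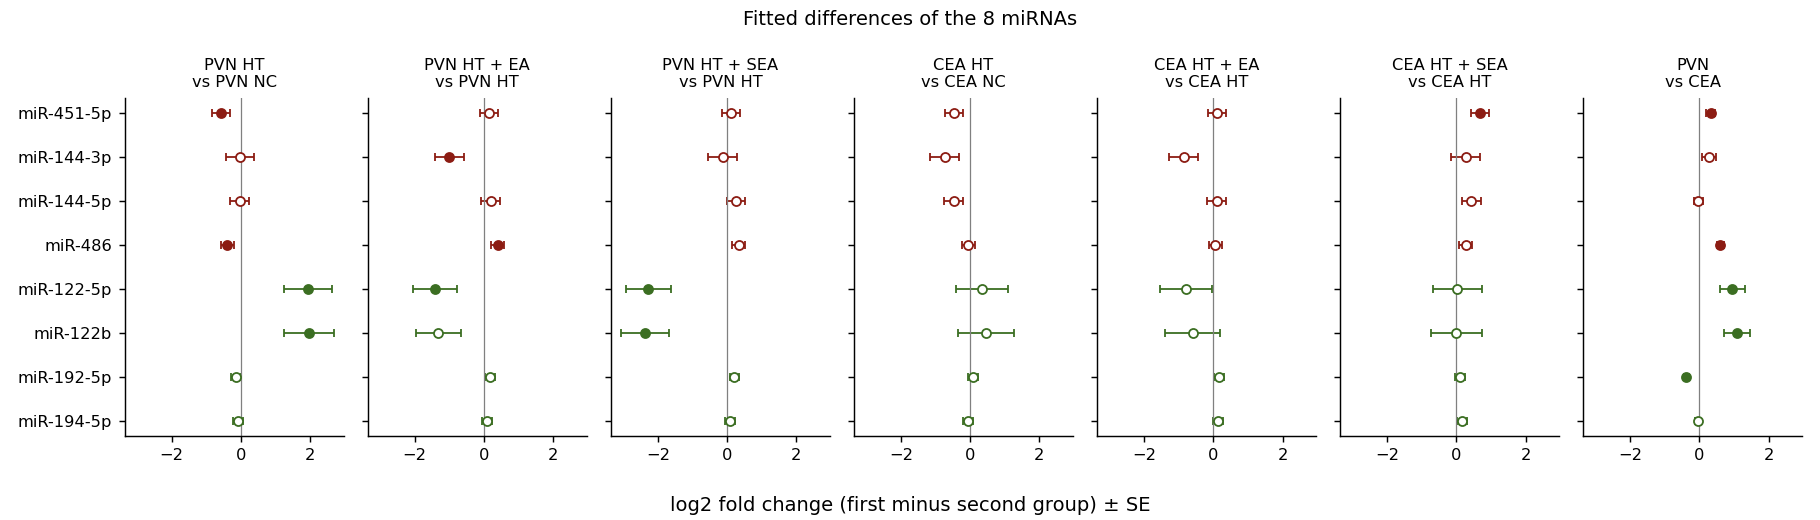
Fitted log2 fold change (horizontal axis, first minus second group) with its SE for the 8 miRNAs in 7 comparisons. Red marks red-cell and green liver miRNAs, and filled points were called at the unadjusted threshold. miR-144-3p lies at -0.998 in the PVN and -0.86 in the CEA for HT + EA against HT, and the miR-122 rows have the widest errors.

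A ratio of 2 miRNAs within a library does not depend on how libraries were scaled. The ratio of miR-144-3p to miR-144-5p, the 2 arms of one hairpin, was 1.95, 1.14 and 1.68 in PVN NC, 1.45, 1.77 and 1.30 in HT, 0.608, 0.482 and 1.04 in HT + EA, and 1.34, 1.20 and 0.930 in HT + SEA. In the CEA it was 1.05, 1.44 and 1.32 in NC, 0.507, 0.901 and 1.58 in HT, 0.646, 0.718 and 0.287 in HT + EA, and 0.860, 1.01 and 0.986 in HT + SEA. The 3p arm was thus the more frequent one in all NC libraries and in 5 of 6 HT + EA libraries the less frequent. Over both nuclei, the ratio was lower in HT + EA than in HT by a mean log2 difference of -0.98 (two-sided exact permutation within nuclei, adjusted p = 0.175 over 20 comparisons) and lower than in HT + SEA by -0.83 (exact permutation p = 0.01, adjusted p = 0.1). The ratio of miR-144-3p to miR-451-5p, its neighbour in the same transcript, differed by -0.99 and -0.73 in the same comparisons (exact permutation p = 0.015 for each, adjusted p = 0.1). None passed after adjustment. The differences stayed negative, from -1.19 to -0.59, without each library in turn. Within 1 nucleus, an exact permutation test of 3 libraries against 3 cannot go below p = 0.1. The ratio of miR-486 to miR-451-5p differed between HT + EA and HT by 0.09 (exact permutation p = 0.555). The tests over both nuclei took 6 libraries against 6, but 12 rats over 4 treatments gave the 24 libraries, so libraries of the nuclei may share animals, and same-numbered HT + SEA libraries of the nuclei deviated together (r = 0.55, 0.46 and 0.37). Such p-values can then be too small. These ratios were examined after the levels had been seen.

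**Figure D3:**
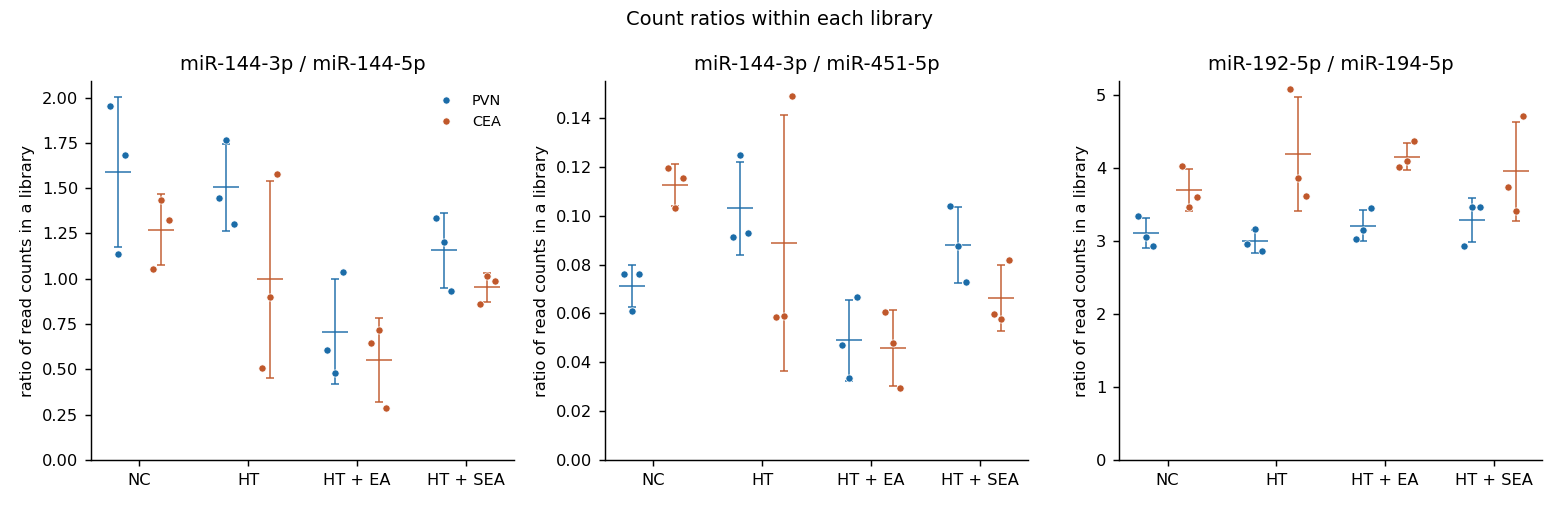
Ratio of 2 miRNAs' read counts in each library (vertical axes from 0), by treatment, with the mean and SD of 3 libraries; blue is PVN and orange CEA. The miR-144 arm ratio is 0.287 to 1.04 in the HT + EA libraries, and the miR-192-5p to miR-194-5p ratio is mostly higher in the CEA, with 3.41 to 5.07 against 2.86 to 3.46.

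miR-122-5p was close to the floor of these libraries except in one. It had 11, 12 and 7 counts in PVN NC, 109, 10 and 13 in PVN HT, 33, 21 and 20 in PVN HT + EA and 16, 15 and 10 in PVN HT + SEA. In the CEA it had 8, 9 and 12 counts in NC, 13, 10 and 14 in HT, 9, 9 and 10 in HT + EA, and 24, 16 and 6 in HT + SEA. PVN HT replicate 1 held 12.4 CPM (exact 95% interval 10.2 to 14.96, counting error only), 11.5 times the median of the other 23 libraries and 5.06 times the highest of them. The other 2 PVN HT libraries held 1.08 and 1.18 CPM, within the 0.951 to 1.67 of PVN NC. miR-122b had 370 counts in all against 417 of miR-122-5p, was equal to it in 8 libraries and never above it, so that the 2 rows were read as 1 measurement counted under 2 names.

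The rise of miR-122-5p after hepatectomy in the PVN (log2 1.94, SE 0.68, adjusted p = 0.333) rested on that library alone. The 2 groups overlapped, and without it the difference was -0.20. The drops of miR-122-5p in HT + EA against HT (-1.41, SE 0.62, adjusted p = 0.546) and in HT + SEA against HT (-2.27, SE 0.66, adjusted p = 0.504) became 0.75 and -0.10 without it. In HT + SEA against HT, the 2 rows of miR-122 were the 2 of 8 members called, against 6.12% of all. Leaving out that library, 0 of 8 members were called in HT against NC, 1 in HT + EA against HT, and 0 in HT + SEA against HT. Of the 446 miRNAs with at least 30 counts in PVN HT replicate 1, only the 2 rows of miR-122 stood above 2 times the highest level of the other libraries. Other liver-rich miRNAs were too few to compare or near their level elsewhere. miR-802-5p had at most 2 counts in any library, miR-122-3p had 1 count in all of them together, and miR-148a-3p made up 8.55% of that library, the highest share of the 12 PVN libraries, next to 8.31%. Its miR-451-5p, at 134 CPM, lay between the other 2 of its group.

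miR-192-5p and miR-194-5p were abundant in every library and varied little. miR-192-5p ranked 107th by mean CPM with 3720 to 11526 counts, and miR-194-5p 191st with 1114 to 2864. In the PVN, miR-192-5p stood at 565, 450.2 and 617 CPM in NC, 476, 519 and 551 in HT, 578, 536 and 617 in HT + EA, and 560.3, 594 and 629 in HT + SEA. In the CEA it stood at 697, 563 and 648 in NC, 523, 740.2 and 667 in HT, 788, 747 and 773 in HT + EA, and 688, 626 and 883 in HT + SEA. The 4 CEA means all lay above the 4 PVN means. The PVN libraries held 148 to 210.5 CPM of miR-194-5p. The CEA libraries held 162 to 197, apart from CEA HT replicate 1 at 103. Neither was called in any treatment comparison, with fitted differences from -0.14 to 0.21, and PVN HT replicate 1 held 476 CPM of miR-192-5p, the lowest of its group. The pooled log2 SD within groups was 0.17 for miR-192-5p and 0.21 for miR-194-5p, against 0.81 for miR-122-5p, 0.39 for miR-451-5p, 0.60 for miR-144-3p and a median of 0.26 over 532 miRNAs with a mean of at least 10 counts.

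**Figure D4:**
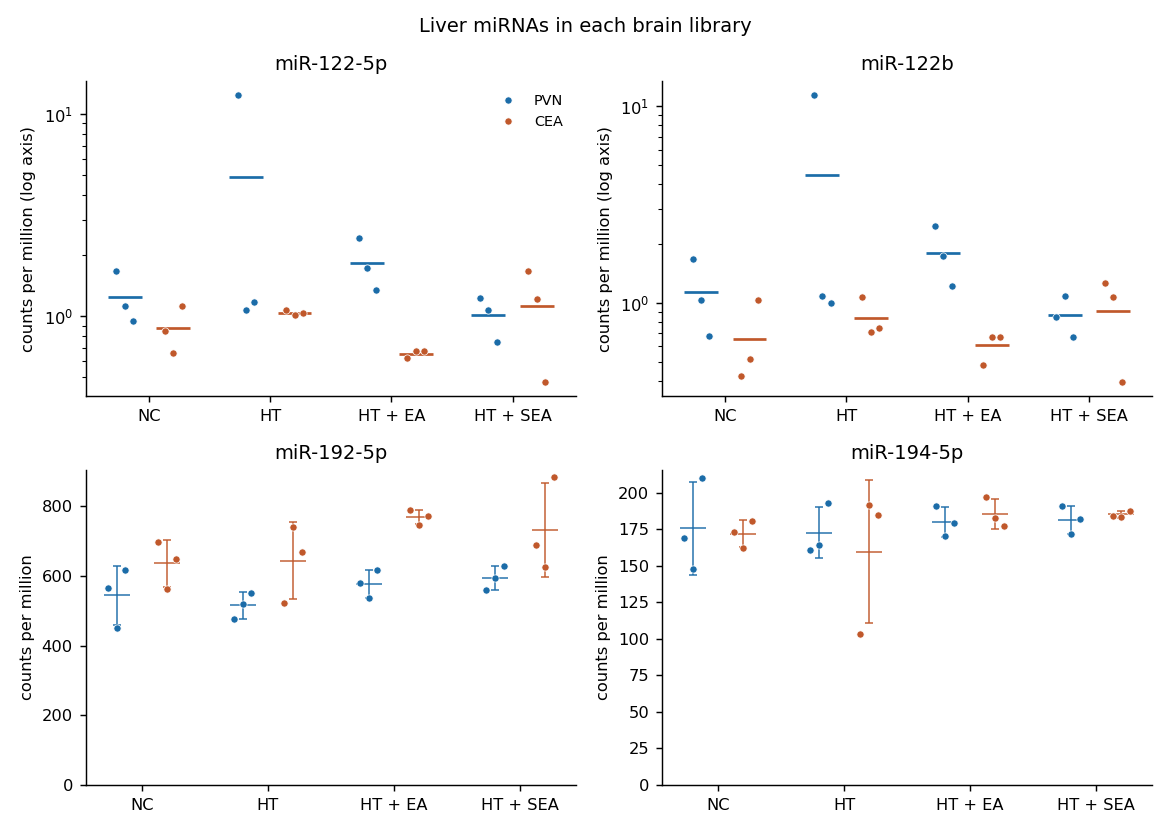
Level of the 4 liver miRNAs in CPM by treatment. Each point is 1 library, with the mean of 3 as a line and, on the linear axes from 0 (miR-192-5p, miR-194-5p), its SD, and the miR-122 panels have log axes. One PVN HT library stands at 12.4 for miR-122-5p while the other 23 lie between 0.473 and 2.45.

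Between the nuclei, the called red-cell miRNAs were higher in the PVN, and the called liver miRNAs went both ways. Over all treatments, the PVN had more miR-486 (log2 0.61, SE 0.09, adjusted p = 1.82e-06), more miR-451-5p (0.33, SE 0.13, adjusted p = 0.043) and more miR-122-5p (0.95, SE 0.36, adjusted p = 0.0323), and less miR-192-5p (-0.38, SE 0.07, adjusted p = 2.83e-05). The arms miR-144-3p and miR-144-5p differed by 0.28 (SE 0.21) and -0.03 (SE 0.14), and miR-194-5p by -0.04 (SE 0.07), none of them called. With miR-122b, 5 of 8 members were called, against 51.7% of all tested, or 47.4% after adjustment, so the members' count was near the background. The libraries of the nuclei overlapped for all 8 members, while 14.1% of all miRNAs showed no overlap. The call of miR-122-5p was lost without PVN HT replicate 1 (0.44, adjusted p = 0.108), and miR-122b, nearly the same counts, then stood at 0.58 and no longer passed the adjusted threshold (adjusted p = 0.0548). The call of miR-451-5p held without each library in turn. Its adjusted p then ran from 0.0115 to 0.0704, so it did not always pass the adjusted threshold. The red-cell-abundant miRNAs of most tissues went 2 higher and 5 lower of 7 in the PVN, and the white-cell list 2 higher and 2 lower of 6. Of the other lists, the endothelial and mural miRNAs went 0 higher and 4 lower of 4, opposite to miR-451-5p and miR-486, the brain list 1 higher and 5 lower of 6, the choroid plexus and epithelial list 3 higher and 1 lower of 5, and the striated-muscle list 0 higher and 2 lower of 4. Their part in the difference between the nuclei was not tested. For the 2 neighbours miR-192-5p and miR-194-5p, whose hairpins lie 100 bases apart, the ratio was 3.15 ± 0.225 in the PVN and 3.99 ± 0.507 in the CEA (SD, n = 12 each; log2 difference -0.34, permutation p = 3e-05, adjusted p = 0.00015 over 5 ratios), with overlapping ranges, and from -0.36 to -0.30 without each library in turn. The ratio of miR-451-5p to miR-23a-3p, a pair used to grade red-cell content of plasma, was 0.711 ± 0.192 in the PVN and 0.508 ± 0.133 in the CEA (log2 difference 0.48, permutation p = 0.00264, adjusted p = 0.0066).

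Within groups, miR-451-5p varied with miR-144-5p and miR-486 from library to library. Over 24 libraries, with group means removed and libraries permuted within groups, log2 levels of miR-451-5p went with miR-144-5p at r = 0.78 and rho = 0.77 (permutation p = 0.00105 and 0.00092, adjusted over 28 pairs 0.0121 and 0.00859). Without 2 libraries r was 0.78. In each pair, these were the 2 libraries farthest from the median of the miRNA named first, whatever the level of the other. For miR-451-5p with miR-486 r was 0.72 and rho 0.65 (permutation p = 0.00209 and 0.00456, adjusted 0.0146 and 0.0255; r = 0.67 without 2 libraries). For miR-451-5p with miR-144-3p r was 0.73 and rho 0.63 (permutation p = 0.0166 and 0.0129, adjusted 0.0516 and 0.0451; r = 0.59). Leaving out CEA HT replicate 1, these 3 r values were 0.77, 0.63 and 0.62. Among the other red-cell pairs, miR-144-5p with miR-486 had r = 0.71 and rho = 0.66 (permutation p = 0.0104 and 0.00432, adjusted 0.0485 and 0.0255; r = 0.57), while miR-144-3p with miR-486 had r = 0.57 and rho = 0.42 (permutation p = 0.121 and 0.105, adjusted 0.206 and 0.176; r = 0.50), and miR-144-3p with miR-144-5p r = 0.60 and rho = 0.49 (permutation p = 0.0147 and 0.0417, adjusted 0.0514 and 0.109; r = 0.60). miR-451-5p and miR-122-5p had r = -0.15 and rho = -0.30 (permutation p = 0.344 and 0.158, adjusted 0.37 and 0.211, and r = -0.17 without 2 libraries). miR-451-5p and miR-194-5p had r = 0.52 and rho = 0.30 (permutation p = 0.175 and 0.249, adjusted 0.244 and 0.303, and r = 0.23 without 2 libraries). For miR-144-3p with miR-194-5p r was 0.61 and rho 0.44 (permutation p = 0.0403 and 0.0691, adjusted 0.094 and 0.16, and r = 0.37 without 2 libraries). miR-486 went the opposite way to miR-122-5p, at r = -0.39 and rho = -0.59 (permutation p = 0.0138 and 0.00759, adjusted 0.0514 and 0.0354; r = -0.42), and with miR-192-5p it had r = 0.70 and rho = 0.55 (permutation p = 0.021 and 0.0427, adjusted 0.0588 and 0.109; r = 0.63). miR-192-5p and miR-194-5p, made together, had r = 0.71 and rho = 0.73 (permutation p = 0.0013 and 0.00088, adjusted 0.0121 and 0.00859; r = 0.75). The libraries share depth and composition, so part of any such r can be common to many miRNAs. Among 524 other miRNAs, those most like miR-451-5p were miR-340-5p (r = 0.87), miR-455-5p (0.86), miR-551b-3p (0.82), miR-99a-3p (0.82) and miR-20a-5p (0.81), higher than any red-cell member. Those most like miR-122-5p were the predicted novel_255 (0.52), miR-344b-5p (0.51), miR-6331 (0.51), miR-543-3p (0.48) and miR-3084a-3p (0.45), and these fell to between 0.30 and 0.43 without PVN HT replicate 1.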

How the data were processed

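Small RNA libraries (NEBNext kit) of 24 samples were analysed. The deposited table holds unnormalised counts of 1098 miRNAs, 703 of them known in the rat and 395 predicted; the handling of reads that match several miRNAs is not given in the sources used here. The submitters' processing notes name HISAT2, featureCounts and the human build GRCh38 (hg38), while the methods name a rat genome; which was used for these counts is unclear, so no coordinate of the files was used. Another 24 columns hold these counts scaled to library totals (CPM) and were not used. Groups came from the sample labels. All 8 groups were fitted together with edgeR 4.0.16 (R 4.3.3, TMM, robust quasi-likelihood F-test, 16 residual degrees of freedom) over 898 miRNAs with at least 10 counts in all; this differs from the study's DESeq2 fits, which were run with version 1.42.0 as an alternative. A call was an unadjusted p under 0.05, the study's threshold, with Benjamini-Hochberg values beside it. Other alternatives were library totals, DESeq2 size factors, filters of 1 count and filterByExpr, no robust estimation, only the groups compared, replicate blocks and leaving out each library. Scripts were tested on simulated data. The 95% interval of a level is exact Clopper-Pearson and covers counting error only, while that of a fitted log2 difference is the estimate with its SE times the t quantile at 16 degrees of freedom. Ratios, the block in fits of 6 libraries and their permutation tests (100000 draws between nuclei and for correlations, exact otherwise; Python 3.11.15, scipy 1.17.1) were added after the levels were seen.

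All 8 listed members are named, the marker lists are given by counts and by the miRNAs called, and the 5 miRNAs most like miR-451-5p and miR-122-5p are named. The members and lists were chosen with earlier results of these data known. The methods place the brain samples in one batch but not in one animal, while 12 rats gave 24 libraries. Whether the nuclei or same-numbered libraries share animals is thus unclear, and p-values may measure technical spread. Same-numbered libraries deviated together, with every correlation over 0.1, in 4 of 12 pairs of groups (HT + EA with HT in the PVN, HT with NC in the CEA, and the 2 nuclei in NC and in HT + SEA); single correlations ran from -0.31 to 0.55. Replicates were not repeat deposits: their counts differed by a chi-square of 59.2 to 1333 per degree of freedom.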

Additional observations from a re-analysis of the deposited data

How the results depend on the processing

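Counts are of the 8 members called. In HT against NC in the PVN, 4 became 2 with library totals and the 1-count filter (miR-451-5p and miR-486 lost) and with only the groups compared (both rows of miR-122 lost), 1 (miR-451-5p) with only those groups and the replicate block, and 3 (miR-486 lost) with filterByExpr and no robust estimation. In HT + EA against HT in the PVN, 3 became 2 (miR-122-5p lost) with only the groups compared, with or without the block. In 2 other settings the count stayed at 3, with miR-486 lost and miR-122b called. For HT + SEA and HT of the PVN, 2 became 1 (miR-486) with only the groups compared and 3 with the block added. For HT + EA and HT + SEA of the PVN, 0 became 1 with DESeq2 size factors, filterByExpr, DESeq2, no robust estimation or the replicate block over all libraries, and 3 with only the groups compared, with or without the block. In HT against NC in the CEA, 0 became 3 with only the groups compared and the replicate block. In HT + EA against HT in the CEA, 0 became 1 with DESeq2 size factors, filterByExpr, DESeq2 and no robust estimation. In HT + EA against HT + SEA in the CEA, 2 became 1 with library totals, the 1-count filter and filterByExpr, and 0 with only the groups compared and the block. The cause was not tested. The replicate block over all libraries left the other member counts as they were; it also left the 5 between the nuclei, as did a block of treatment and replicate number.

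Leaving out 1 library, counts ran from 0 to 4 (HT against NC), 0 to 3 (HT + EA against HT), 0 to 3 (HT + SEA against HT) and 0 to 1 (HT + EA against HT + SEA) for the PVN, and 0 to 2, 0 to 1, 0 to 3 and 0 to 4 in the CEA; 4 to 6 between the nuclei; and 0 to 2 and 0 to 1 for the differences of the operation's and of electroacupuncture's effect between nuclei. Log2 differences changed sign for 7 results, each by leaving out 1 library. In the PVN without HT replicate 1, miR-122-5p and miR-122b became -0.20 and -0.17 in HT against NC and 0.75 and 0.83 in HT + EA against HT; the other ends of these ranges were 2.45, 2.49, -1.91 and -1.83. miR-451-5p, never called there, became -0.062 in HT + EA against HT (up to 0.28) and -0.21 against HT + SEA (up to 0.13) without PVN HT + EA replicate 2, and -0.14 in HT + EA against HT (up to 0.34) without CEA HT replicate 1.

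The summed red-cell level of PVN HT was 238 CPM, and 229 after TMM scaling. Library totals moved the median of all miRNAs by 0.14 and -0.12 in the differences of effects between nuclei and by under 0.1 elsewhere. In the main edgeR fit no miRNA passed the adjusted threshold in a treatment comparison. Members did so in some alternatives. In the PVN, miR-144-3p reached an adjusted p of 0.0382 in HT + EA against HT and 0.00155 against HT + SEA. Both rows of miR-122 reached 0.0317 in HT + SEA against HT when 1 library was left out. By DESeq2, 6 miRNAs passed in HT against NC and 7 in HT + EA against HT in the PVN. At 6 to 33 counts outside 1 library, miR-122-5p could show only large differences.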

Other observations

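miR-223-3p, a miRNA of neutrophils and platelets, differed severalfold between libraries of the same group in PVN NC, CEA NC, CEA HT + EA and both HT + SEA groups. In all 6 HT libraries it held 0.886 to 1.54 CPM. In PVN NC it held 22.3, 89.0 and 81.2 CPM, in CEA NC 1.27, 10.7 and 10.8, in PVN HT + EA 10.3, 8.98 and 11.9, in CEA HT + EA 1.24, 12.5 and 10.5, in PVN HT + SEA 11.1, 1.58 and 1.49, and in CEA HT + SEA 19.0, 1.38 and 1.74. In HT against NC its log2 difference was -5.66 (SE 1.22, edgeR adjusted p = 0.117) in the PVN and -2.99 (SE 1.23, adjusted p = 0.936) in the CEA, without overlap between the groups in either nucleus. The groups did not overlap for 13.8% of all tested miRNAs in the PVN and 6.24% in the CEA. The rest of the white-cell list went both ways in the PVN, without a call. Means of miR-150-5p, miR-155-5p and miR-142-5p were higher in HT than in NC, and those of miR-142-3p and miR-223-5p lower.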
